A study of Mus musculus with 20 samples.

Results

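In brown adipose tissue of female and male mice, 5967 and 5393 GPS2 ChIP-seq peaks had at most 1 tag in the matching Gps2 knockout library and overlapped no other peak list of the study. They were taken from 18722 and 39649 peaks on chromosomes 1 to 19, out of 19150 and 40040 in the whole lists. The series covers 20 mouse samples, of which 4 are GPS2 libraries of brown fat, 1 for each sex and genotype. Wild-type (GPS2-WT) mice were compared with littermates in which a floxed Gps2 allele (Gps2flox/flox) had been removed by Cre under the adiponectin promoter (Adipoq-Cre), all on a mixed 129sv/C57BL6J background. Such a Cre acts in fat cells, so other cells of the tissue keep the gene. The labels name no treatment of the animals, and their age is not given in the sources used here. The sex is that of each sample's own label, while the growth protocol speaks of male animals only. The other lists come from 3T3-L1 cells, a mouse preadipocyte line, untreated or exposed to FCCP, an uncoupler of mitochondrial respiration.

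GPS2 is a small subunit of the corepressor complexes built on N-CoR and SMRT, and it also restrains ubiquitin signalling by the conjugating enzyme Ubc13. In fat cells it is known for sitting in mitochondria as well as in the nucleus and for moving to the nucleus under mitochondrial stress, where it acts on nuclear genes that encode mitochondrial proteins. Brown fat burns fuel for heat and is rich in mitochondria. In ChIP-seq of such a factor, a library from tissue that lacks the protein shows what the antibody and the chromatin give without the target. Here the other cells of the tissue keep the gene, so the knockout library is only in part such a control. Peaks that are nearly empty in the knockout library are those at which this control takes least from the signal. There was 1 library per sex and genotype, and no peak of the 2 chosen sets overlaps a peak in the list of the other sex, so its values have no replicate check. The peaks were chosen by their knockout tags, so their low knockout signal and their high fold over knockout are descriptions of the choice. Peaks are named by mm8 position and were not annotated to genes here.

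In both lists the threshold came down to 0 or 1 counted knockout tag. The female list gives unscaled knockout tags, with 0.5 as its lowest value, then 1 and 2. The male list gives knockout tags scaled down to the wild-type depth, with values of 0.3, 0.7 and 1.4. Of these, 0.7 is the rounded value of 1 tag and 1.4 that of 2 tags. Neither column contains a 0, so the lowest value was read as no counted tag. On this reading 1523 of the 5967 female peaks had no knockout tag (25.5%, Wilson 95% interval 24.4 to 26.6) and 4444 had 1. Of the 5393 male peaks, 1288 had none (23.9%, 22.8 to 25) and 4105 had 1. Peaks without a knockout tag were 8.82% of all autosomal female peaks and 3.39% of the male ones.

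The wild-type libraries held 39310667 tags (female) and 30069322 (male). The scaled columns imply knockout libraries of about 36400000 and 44300000 tags. At these depths 1 knockout tag is worth 0.275 tags per 10000000 in females and 0.226 in males. The headers give 2.33 and 1.675 tags as the wild-type average for a window as wide as a peak, which scales by depth to 2.16 and 2.47 tags in the knockout libraries. Both 0 and 1 lie below these values, and a count of 0 allows up to 0.825 tags per 10000000 in females and 0.677 in males when taken as 3 counts. The exact two-sided 95% limits are wider, 1.01 and 0.832. The 3 counts already exceed the averages of 2.16 and 2.47 tags, so even a count of 0 does not set a peak below an average window. All intervals and limits on tags cover counting error only, and they treat every tag as separate, also where several share a base.

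Peaks with almost no knockout signal were low peaks. Their median height was 11 wild-type tags in females (quartiles 10 and 13, range 8 to 69) and 10 in males (9 and 12, range 6 to 28). The other autosomal peaks had medians of 14 and 13 tags. On the deposited scale, which sets each library to 10000000 tags, the medians were 2.80 normalized tags against 3.56 in females and 3.33 against 4.32 in males. The tag score from which the peaks were called was at its lowest value, 10, in 39.2% of the female peaks and in 10.0% of the others. In males the lowest score, 8, was found in 43.0% of these peaks and in 15.5% of the others.

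The share of peaks with at most 1 knockout tag fell steeply with height. It was 35.0% over the whole autosomal female list and 14.4% over the male one. Among female peaks of 11 tags it was 43.2%, at 13 tags 23.8%, at 16 tags 14.2% and at 20 tags 7.99%. Male peaks went from 44.0% at 9 tags to 24.1% at 10, 12.7% at 12 and 4.59% at 15. At the low end the lists held no other kind of peak. A peak had to pass a Poisson p-value of 1e-04 over the knockout, and no female peak of 8 to 10 tags was listed with more than 1 knockout tag. As many as 1902 of the 5967 female peaks (31.9%, 30.7 to 33.1) had such a tag count. In males this held for peaks of 6 and 7 tags, 141 of 5393 (2.61%, 2.22 to 3.08). Above these heights the same filter let in more knockout tags at taller peaks. The highest knockout count of any autosomal female peak was 2 at 11 tags, 3 at 13, 4 at 16 and 6 at 20. For males it was 2 at 9 tags, 3 at 10, 4 at 12 and 6 at 15. The fall with height is therefore partly set by the filter. Among peaks of 11 or more tags, 4065 of 16632 female peaks had at most 1 knockout tag and no overlap with another list (24.4%). Among male peaks of 8 or more tags there were 5252 of 39492 (13.3%).

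**Figure D1:**
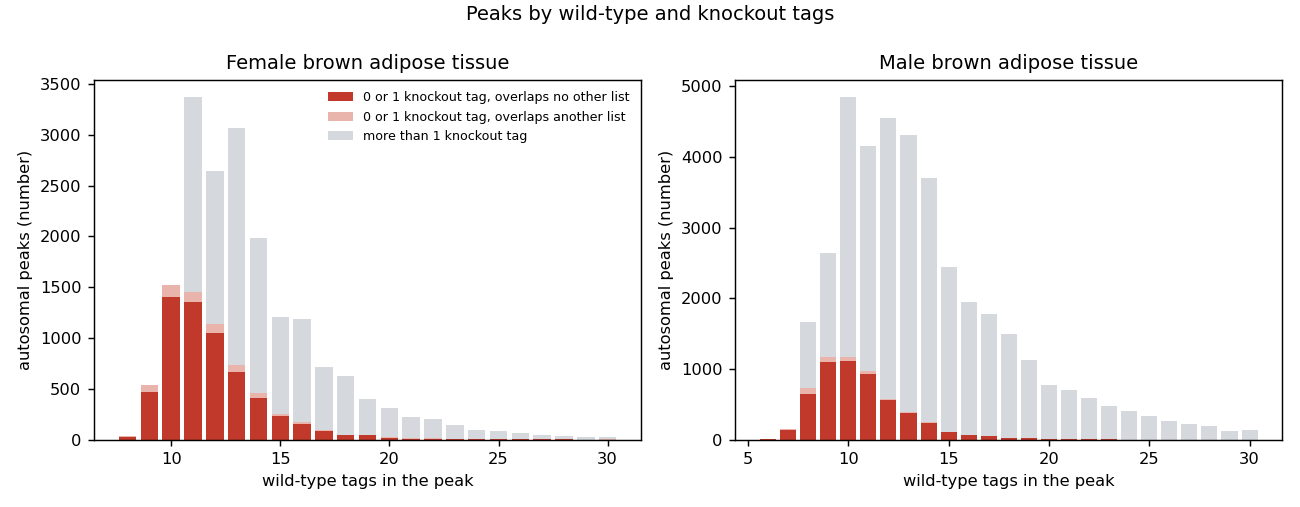
Number of autosomal peaks (y axis) by wild-type tags in the peak (x axis, up to 30 tags) in the female (left) and male (right) list, stacked by knockout tags and by overlap with other lists. Red bars make up nearly all female peaks of 8 to 10 tags, where no peak had more than 1 knockout tag, and shrink quickly above 15 tags in both lists.

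A few peaks stood well above this level. The tallest female one was at chromosome 19, 7008573 to 7008711. It held 69 wild-type tags and 1 knockout tag, or 17.6 normalized tags, which is 63.9-fold over knockout at equal depth (exact 95% interval 11.1 to 2559). It was 18.2-fold over its surroundings. No other member of the female list exceeded 28 tags, and the next was at chromosome 10, 95643693 to 95643831, with 28 tags against 1 (25.9-fold, 4.28 to 1060). Then came chromosome 7, 111518352 to 111518490, with 27 tags against 1, and chromosome 2, 28369952 to 28370090, with 26 against 1. The fifth, at chromosome 1, 184326549 to 184326687, had 25 wild-type tags and none in the knockout. Its fold had an exact lower 95% bound of 5.82, and it was 7.71 when 3 tags are put in the knockout library and the wild-type tags are taken as they are, while the deposited value of 46.28 rests on the half-tag entry.

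In males the tallest of these peaks was at chromosome 5, 136011638 to 136011772, with 28 wild-type tags and 1 knockout tag (41.3-fold, 6.82 to 1688). At chromosome 15, 75979857 to 75979991, there were 27 tags against 1 (39.8-fold, 6.56 to 1630). The next peaks all had 23 wild-type tags. One at chromosome 17, 86162792 to 86162926, had no knockout tag, with an exact lower 95% bound of 8.47 and a fold of 11.3 against 3 knockout tags. Those at chromosome 1, 34163055 to 34163189, and chromosome 11, 78328248 to 78328382, had 1 knockout tag each (33.9-fold, 5.51 to 1397). At equal tag numbers a male peak has a higher fold than a female one, since the male knockout library was deeper than its wild-type library and the female one was not.

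**Figure D2:**
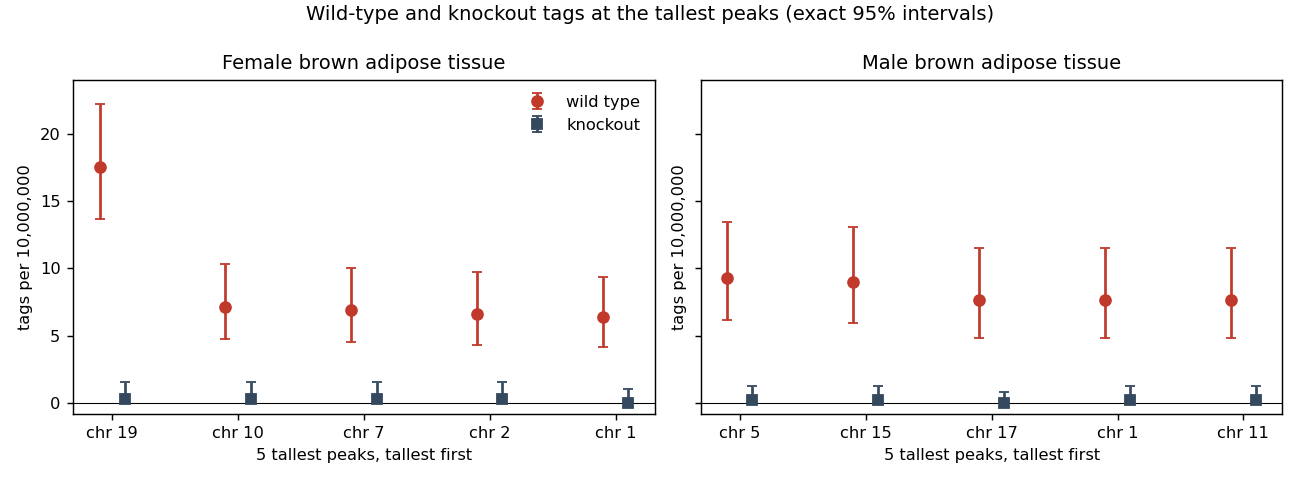
Wild-type (red circles) and knockout (dark squares) tags per 10000000 (y axis) at the 5 tallest peaks with almost no knockout signal in the female (left) and male (right) list, labelled by chromosome on the x axis, with exact 95% counting intervals. The female chromosome 19 peak, at 17.6 tags per 10000000, stands apart from the other 9 peaks, which lie between 6.36 and 9.31, and no wild-type interval reaches a knockout interval.

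On either side of the threshold the tallest peaks had similar numbers of wild-type tags, apart from the first female one. Just inside it, with 1 knockout tag, the tallest peaks were the chromosome 19, 10 and 7 peaks named above in females, with 69, 28 and 27 wild-type tags. Just outside it, with 2 knockout tags and no overlap with another list, the tallest were at chromosome 14, 69501728 to 69501866 (38 tags), chromosome 3, 142431087 to 142431225 (28 tags), and chromosome 19, 40528185 to 40528323 (27 tags). In males the tallest just inside had 28, 27 and 23 tags. Those just outside were at chromosome 2, 30203554 to 30203688 (26 tags), chromosome 3, 66023191 to 66023325, and chromosome 4, 136937387 to 136937521 (25 tags each). There were 5483 female and 7344 male peaks with 2 knockout tags and no overlap, which is 29.3% and 18.5% of the autosomal peaks. The peaks with at most 1 knockout tag and no overlap made up 31.9% and 13.6%.

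For most of these peaks the fold over knockout was known only within wide limits. The deposited fold had a median of 11.1 in females (quartiles 10.2 and 16.7, range 7.4 to 63.86) and of 16.2 in males (13.3 and 23.6, range 8.84 to 67.81). A female peak with 1 knockout tag held 11 wild-type tags at the median, which gives a ratio of 10.2 with an exact interval of 1.48 to 438. A male one with 10 tags gives 14.7 (2.10 to 640). For a peak without a knockout tag, the exact lower bound was 2.32 at the female median of 11 tags and 3.30 at the male median of 10. Against 3 knockout tags, such peaks had folds of 3.39 and 4.91. The lower bound of the ratio was above 2 at 1840 of 5967 female peaks (30.8%), beside 12.9% of all autosomal peaks of that list. For males it was above 2 at 3997 of 5393 (74.1%), beside 21.0%. A lower bound above 4 was reached by 33 female peaks (0.553%), beside 0.294% of the list, and by 369 male peaks (6.84%), beside 1.00%. The rule used the same tags, so nothing follows from these shares except how many of the peaks have a well-bounded fold.

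Fold over the surroundings uses the wild-type library alone, as the tag density of a peak over that of the 10000 bp around it. Its median was 5.50 at the female peaks (quartiles 4.66 and 6.90) and 5.17 at the other autosomal peaks. In males it was 6.45 (5.33 and 8.23) against 5.99. At least 4-fold was reached by 93.7% of the female peaks, beside 88.4% of their list, and by 98.1% of the male peaks, beside 92.7%. The tags that the surroundings put into a peak width had a median of 2.03 at the female peaks and 2.67 at the others, where the whole library averages 2.33. The male values were 1.57 and 2.26, with a library average of 1.675. These tags are the wild-type tags of a peak divided by its fold over the surroundings, so they go with peak height. Among the female peaks with almost no knockout signal their median was 1.15 at 8 wild-type tags and 3.71 at 20. The surroundings lay below the library average at 64.4% of the female and 56.2% of the male peaks with almost no knockout signal. Among the other autosomal peaks, 34.6% of the female and 26.6% of the male ones lay below it.

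At equal height these differences were small or absent. When the other peaks were weighted to the same wild-type tag counts, the median tags from the surroundings were 2.37 in both sets of female peaks and 1.60 in both sets of male peaks. Median folds over the surroundings were then 5.17 and 5.13 in females and 6.38 and 6.32 in males. At 13 tags, for example, female peaks with almost no knockout signal had a median of 4.89 and the others 4.97, and male ones 5.65 and 5.59. Only tag counts at which a list holds peaks with more than 1 knockout tag could be matched. They covered 4064 of the 5967 female and 5252 of the 5393 male peaks. Most matched members lay at heights where the others also had few knockout tags. The highest knockout count of any autosomal female peak was 2 at 11 and 12 tags and 3 at 13 to 15. For males it was 2 at 8 and 9 tags and 3 at 10 and 11. The matched values therefore say little about peaks with many knockout tags, here and in the later comparisons at equal tag counts.

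**Figure D3:**
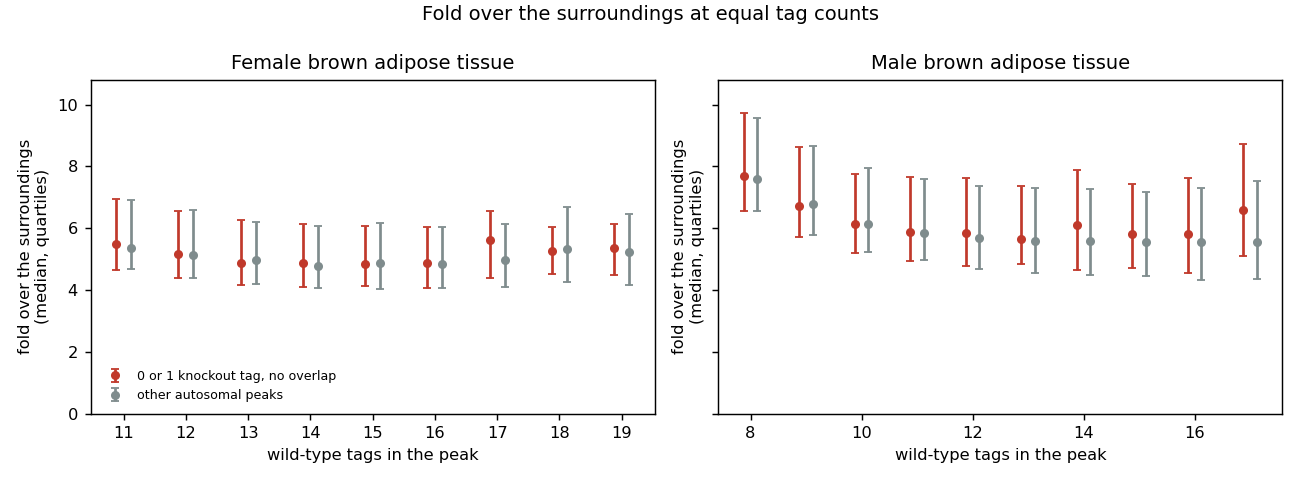
Median fold over the surroundings with quartiles (y axis) at equal numbers of wild-type tags (x axis) for peaks with almost no knockout signal (red) and the other autosomal peaks (grey) of the female (left) and male (right) list. At each tag count with at least 20 peaks in both sets the quartile ranges overlap, and at 13 tags the medians are 4.89 and 4.97 in females and 5.65 and 5.59 in males.

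The best isolated peaks were not the tallest. In females the highest fold over the surroundings was 30.97, at chromosome 6, 74338405 to 74338543, with 13 wild-type tags and 1 knockout tag. It was followed by 3 peaks in a stretch of chromosome 14, at 92329579 to 92329717 (25.52-fold, 10 tags against none), 89174965 to 89175103 (23.82-fold, 10 against 1) and 88262897 to 88263035 (22.74-fold, 14 against 1). The fifth was at chromosome 4, 37940474 to 37940612 (21.02-fold, 15 tags against none). In males the highest was 45.24, at chromosome 10, 128875963 to 128876097, with 13 tags against 1. The others were at chromosome 5, 16507596 to 16507730 (34.95-fold, 11 against 1), chromosome 12, 62628639 to 62628773 (34.1-fold, 14 against none) and 46753487 to 46753621 (30.24-fold, 12 against none), and chromosome 1, 147413285 to 147413419 (28.71-fold, 11 against 1). No peak was in both the set of tallest and the set of best isolated ones. The thinnest surroundings of any of these peaks put 0.392 tags into a peak width in females and 0.287 in males.

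The focus ratio, the share of a peak's tags that lie on the strand and side expected around a bound site, was slightly higher than elsewhere. Its median was 0.769 in females (quartiles 0.7 and 0.846) against 0.750 at the other autosomal peaks, and 0.800 in males (0.722 and 0.857) against 0.769. At equal tag counts the medians came to 0.765 and 0.762 in females and to 0.800 and 0.786 in males. These matched values leave out the members without a match, as for the fold over the surroundings.

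The rule also asked that no other list overlap, and the peaks it removed show how often the low-knockout places were found again. Of 6558 female autosomal peaks with at most 1 knockout tag, 270 overlapped a male peak (4.12%, Wilson 95% interval 3.66 to 4.63), and of the 12164 others 1156 did (9.5%, 9 to 10.0). Of 5695 such male peaks, 28 overlapped a female peak (0.492%, 0.340 to 0.710), against 1398 of 33954 others (4.12%, 3.91 to 4.33). At equal tag counts the female shares were close, with 5.28% (4.66 to 5.98) against a weighted 5.17%. In males they were 0.506% (0.350 to 0.730) against 1.12%. The weighted shares carry no interval.

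Before matching, 2.70% of the female low-knockout peaks and 4.18% of the others overlapped a peak of untreated 3T3-L1 cells, and 3.43% and 4.13% one of FCCP-treated cells. In males the shares were 2.41% and 3.12% for untreated cells, and 3.56% and 3.36% for FCCP, so the order was turned there before matching, with overlapping Wilson intervals (3.11 to 4.08 and 3.17 to 3.55). At equal tag counts the low-knockout peaks had the lower share against both cell lists in both sexes. Against untreated cells it was 2.44% (2.03 to 2.94) for female low-knockout peaks and 3.02% for the weighted others, and 2.28% (1.91 to 2.70) and 3.44% in males. The values against FCCP-treated cells were 2.55% (2.13 to 3.06) and 3.19% in females. In males they were 3.49% (3.03 to 4.00) and 4.04%. The cell lists were called without a control library.

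**Figure D4:**
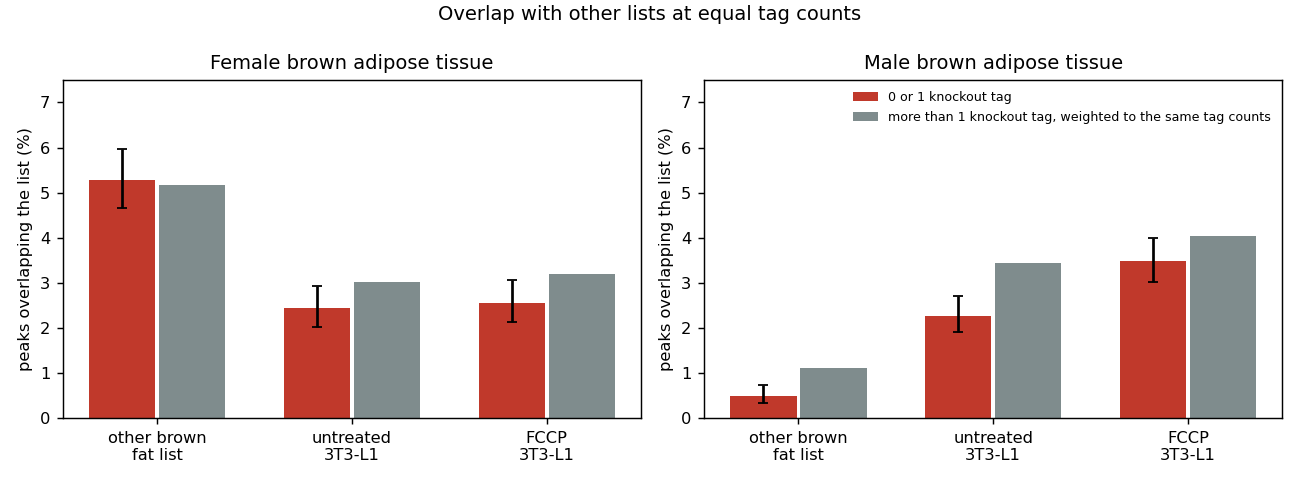
Share of autosomal peaks that overlap another list (y axis, percent) for peaks with 0 or 1 knockout tag (red, with Wilson 95% intervals) and for peaks with more knockout tags weighted to the same wild-type tag counts (grey), in the female (left) and male (right) list. The male red bar for the other brown fat list is at 0.506% beside 1.12%, while the female bars stand at 5.28% and 5.17%.

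At 8 places both lists had at most 1 knockout tag, 0.122% of the 6558 female and 0.140% of the 5695 male peaks, and the overlap rule removed them. Overlap between the lists was rare for all peaks, and only 270 of these female and 28 of these male peaks overlapped the other list. Peaks with at most 1 knockout tag made up 35.0% of all autosomal female and 14.4% of all autosomal male peaks, but less of the overlapping ones. The overlapping female peaks were 270 of this kind and 1156 others, and the male ones 28 and 1398. Whether a low knockout count was found again more or less often than these counts give was not tested. The tallest of the 8 was at chromosome 10, 77765292 to 77765430 in females, with 16 wild-type tags and no knockout tag. The male peak there, at 77765293 to 77765427, had 18 wild-type tags and 1 knockout tag. At chromosome 7, 141095924 to 141096062, the female peak had 14 tags against 1 and the male one, at 141095948 to 141096082, also 14 against 1. At chromosome 2, 122394351 to 122394489, neither knockout library had a tag, with 11 wild-type tags in females and 10 in the male peak at 122394326 to 122394460. The remaining 5 had 9 to 11 tags in females and 10 to 14 in males. A place missing from the other list can still have had tags there, since a peak had to pass the height, knockout and local rules to be listed.

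Near neighbours were described beyond the overlap. The nearest peak of the same list lay within 10 kb for 19.7% of the female peaks (18.8 to 20.8) and 26.4% of the other autosomal ones, and for 29.9% (28.7 to 31.2) and 44.8% in males. Held to the same tag counts and to the same rule on overlap, the shares were 23.1% and 22.5% in females and 30.6% and 31.2% in males. For female peaks the same matched comparison gave 8.14% (7.34 to 9.03) and 7.71% with a male peak within 1 kb. Male peaks with almost no knockout signal were less often near a female one, with 1.52% (1.23 to 1.89) against 2.35% within 1 kb and 15.7% (14.7 to 16.7) against 17.5% within 10 kb. Without matching, the nearest member lay at a median of 114043 bp in females and 130067 bp in males, and within 10 kb for 7.16% and 5.14%. Also without matching, the nearest peak of the same list was itself a member for 35.7% of the female members. This held for 28.9% of the other female peaks, and in males for 18.2% and 12.3%. Members made up 31.9% of all autosomal female and 13.6% of all autosomal male peaks. Members are low peaks, so these shares do not tell grouping of members from grouping of low peaks. Between the lists, 23 female members (0.385%) had a male member within 1 kb. Any male peak lay within 1 kb of 6.39% of the female members and 20.2% of the other female peaks, without matching. The rule had barred the members, but not the others, from overlapping a male peak, so this gap is largely set by the choice. Within 300 bp the shares were 1.54% and 13.7%. Under the same overlap rule and at equal tag counts, the 1 kb shares were the 8.14% and 7.71% given above.

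Across chromosomes, the female share with almost no knockout signal and no overlap ran from 26.5% on chromosome 11 (24.1 to 29.1) to 36.9% on chromosome 14 (33.6 to 40.3). It averaged 31.9% over the list. In males, with 13.6% over the list, it ran from 10.7% on chromosome 19 (8.96 to 12.6) to 16.6% on chromosome 18 (14.7 to 18.7). The shares of the 19 chromosomes went together in both lists (Pearson's r 0.595, Spearman's rho 0.658). They ran against the median tags from the surroundings, with r of -0.871 in females and -0.755 in males. These points share libraries, depth and base composition, so the relations are descriptions. Once each chromosome was held against the number its tag counts would give, the ratio lay between 0.934 and 1.11 in females and between 0.905 and 1.15 in males. Chromosome 4 was high in both, at 1.11 and 1.11, and chromosome 11 was at 0.993 in females and 1.15 in males.

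**Figure D5:**
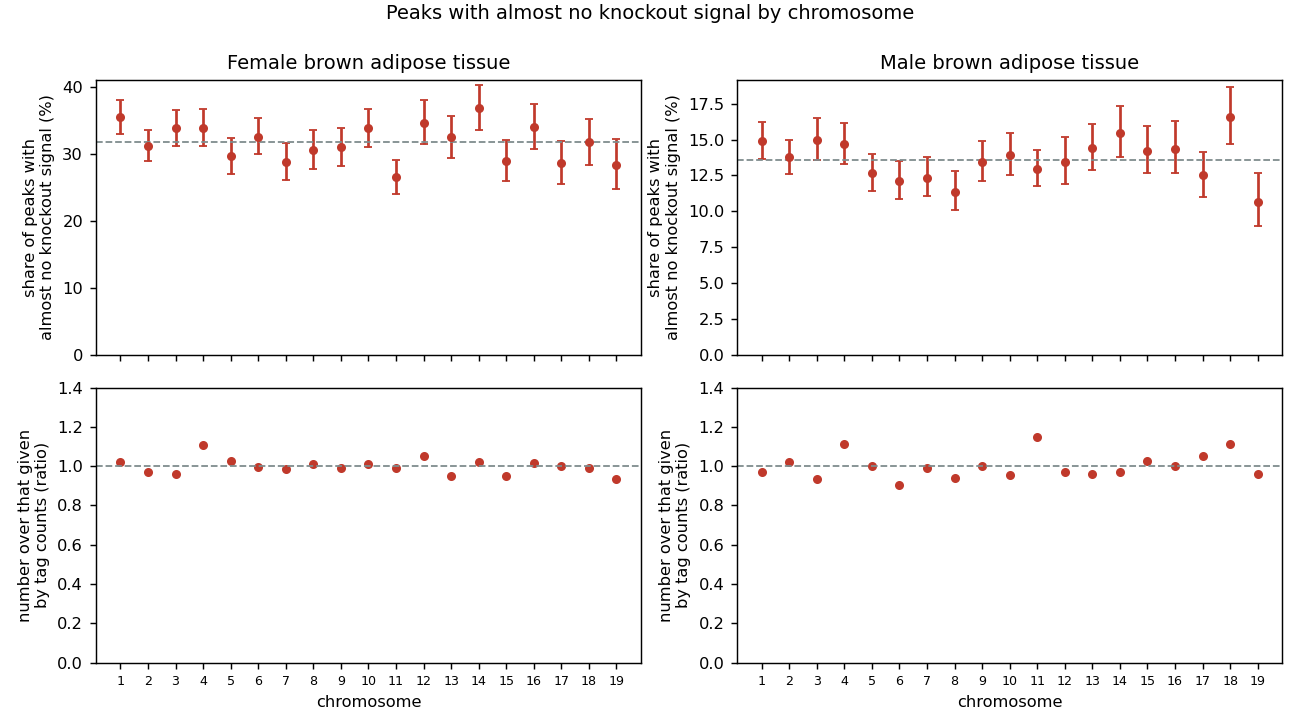
Share of autosomal peaks with almost no knockout signal and no overlap (top, percent, with Wilson 95% intervals and a dashed line at the share over the list) and their number divided by that given by the chromosome's tag counts (bottom, dashed line at 1), by chromosome on the x axis for the female (left) and male (right) list. The top shares run from 26.5% to 36.9% in females and 10.7% to 16.6% in males, and the bottom ratios stay between 0.905 and 1.15.

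The peaks were spread thinly over the genome. Of 2415 autosomal windows of 1 Mb, 2071 held at least 1 of the female peaks and 2015 at least 1 of the male peaks, with a median of 2 in both. The fullest female window was chromosome 1 from 162 to 163 Mb, with 13 of its 23 peaks, and the male list had 5 members there. Next came chromosome 3 from 104 to 105 Mb, with 11 of 24, and chromosome 4 from 81 to 82 Mb, with 11 of 18. In males the fullest were chromosome 11 from 45 to 46 Mb, with 10 of 32 peaks, chromosome 17 from 30 to 31 Mb, with 10 of 33, and chromosome 2 from 169 to 170 Mb, with 9 of 39. Over all windows, the female count had a Spearman's rho of 0.460 with the other female peaks, 0.476 with the other male peaks and 0.280 with the male members. The male count had 0.494 with the other male peaks. Against the untreated and FCCP cell lists the values were -0.171 and -0.180 in females and -0.293 and -0.292 in males. Windows are not independent and share mappability and base composition, so these are descriptions as well. The other brown fat peaks were not set against the cell lists in this way, so the negative values cannot be called particular to members. An untreated 3T3-L1 peak lay within 100 kb of 79.9% of female members and 70.4% of the other female peaks. In males the shares were 77.0% and 68.0%. At equal tag counts and under the same overlap rule they were 75.3% and 74.2% in females and 76.4% and 76.7% in males.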

How the data were processed

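GPS2 ChIP-seq was described from 4 deposited peak lists. The submitters' processing notes name mm8, Bowtie2 and HOMER, with no versions given in the sources used here. Per the file headers, the authors called each brown fat list against the knockout library of its sex. A peak had to pass an FDR of 0.05 and a 2-fold excess with a Poisson p-value of 1e-04, both over the knockout and over the surrounding 10000 bp. The headers set a maximum of 1 tag considered per base. The tag counts used here were not held to it, since they reach 7128 in a female peak of 138 bp. In males they reach 1541 in a peak of 135 bp. The highest autosomal score of the female list was 384. The tallest female peak with almost no knockout signal had 69 tags and a score of 56. The deposited normalized tag count and scaled tag columns are signals, the male total tags are counts, and scores, folds (ratios), focus ratios (fractions) and p-values were given by the authors peak by peak. The p-values and the column on clonal tags entered no comparison.

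Overlap meant at least 1 shared bp, with positions read as closed intervals. Female wild-type tags were the normalized count times library size, rounded; in 154 male members the total tags differed by over 0.6 from that product, and the total was used. Knockout library sizes were recovered from the scaled columns. Ratios carry exact intervals (binomial, given the tags of both libraries), shares Wilson 95% intervals. Weighted values give each wild-type tag count its weight among the low-knockout peaks. Peaks named are the 5 highest in normalized tags and in fold over the surroundings, the 3 tallest on either side of the threshold, and the 3 fullest windows of 1 Mb. The 8 places low in both lists were singled out after their values were seen. The members and descriptions were chosen with earlier results of these data known. The selection, distance and interval steps were tested on simulated data. Annotation, sequences and the other samples were not used, except that knockout libraries enter through the brown fat lists. Software was Python 3.11.15 with SciPy 1.17.1, pandas 2.3.3, numpy 2.4.6 and, for figures, matplotlib 3.10.9.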

Additional observations from a re-analysis of the deposited data

How the results depend on the processing

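No paired analysis was possible because each of these peaks has tags of 1 wild-type and 1 knockout library only, with no listed peak in the other sex. The alternatives therefore show how far the descriptions move. Of 140 values under alternative settings, 79 stayed within 1.5 times the number, or within the 95% interval of the median or share. The values below are given in the order number of peaks, height, fold over the surroundings, focus ratio, share with a peak of the same list within 10 kb, fold over knockout and peaks in the fullest window, leaving out those that stayed.

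With no knockout tag, the female list gave 1523, 5.58, 0.778, 17.86%, 20.36 and 5 (without a moved height), and the male list 1288 peaks, 6.545-fold over the surroundings, 27.33%, 29.48-fold and 5. With at most 2 knockout tags, they were 11450, 3.05, 5.28, 0.765, 21.06%, 8.33 and 23 in females, and 12737 peaks, 6.29-fold, 9.58-fold and 19 in males. Among the better-scoring peaks (score rank up to the middle of the list), they were 1486, 3.56, 4.90, 0.742, 29.0%, 13.88 and 7 in females, and 889, 4.32, 5.62, 0.778, 47.81% and 20.64 in males. At least 4-fold over the surroundings, females had a fold of 5.62, a focus ratio of 0.778 and 18.35%. Without other centres within 1000 bp the female focus ratio was 0.778. Without the overlap condition the male fold over the surroundings was 6.51, and with the other brown fat list alone it was 6.52, and 5.58 in females. Using all sequence names moved no value past these limits.

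The next alternatives were chosen after seeing the data. At most 1 knockout tag per 10000000, which is 3 tags in females and 4 in males, gave 14721, 3.05, 5.17, 0.762, 22.63%, 6.48 and 25 in females, and 24682, 3.66, 6.03, 0.786, 36.22%, 6.63 and 35 in males. Restricted to tag counts that allow more than 1 knockout tag, females had a height of 3.05, a fold over the surroundings of 5.17, a focus ratio of 0.765, 23.12% and 12.03-fold over knockout. The planned scaling of the knockout tags by a library size from the header was not run, since the header gives none. With 0 or 1 knockout tag in each peak, depth limits the fold over knockout.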
